A study of Homo sapiens with 8 samples.

Results

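The integrated stress response genes described here are 10 symbols of the deposited expression table of 17056 genes: the transcription factors ATF4 and DDIT3, and 8 genes known as their targets, ASNS, PSAT1, PHGDH, TRIB3, CHAC1, DDIT4, SESN2 and PPP1R15A. All 10 symbols were found in the table. They were selected by name with the levels of these same libraries in all 4 groups already known, so their levels and differences are given as a description, with no p-value. Where any of them is said to be called, it passed a threshold in these libraries, which is no independent test. The libraries were made from total RNA of A549 cells, a widely used line from a human adenocarcinoma of the lung. The labels give 4 groups of 2 libraries: knockdown of the non-coding transcript AFAP1-AS1 (ASO in the titles), its negative control (ASONC, called knockdown control here), overexpression of AFAP1-AS1 (OE), and a vector control. The labels do not spell out ASO, name no time or dose, and do not say whether the libraries of a group came from separate cultures. The level of AFAP1-AS1 is not analysed here, and the group labels were therefore not checked by it.

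In the integrated stress response, kinases that sense different stresses phosphorylate the translation initiation factor eIF2, which lowers protein synthesis in general while the ATF4 messenger RNA is translated more. ATF4 protein, a bZIP transcription factor, then activates genes for amino acid supply and for stress signalling, among them DDIT3, which encodes the bZIP factor CHOP. Because ATF4 is controlled to a large part at translation, the level of its messenger RNA and the activity of its protein need not move together. Cultured lung adenocarcinoma cells use this program to adjust amino acid synthesis and uptake.

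ATF4 and its C/EBP partners are known to bind a composite element that can be written TGATGNAA, and ATF-type factors bind the cyclic AMP response element TGACGTCA. Both were searched on both strands in the 250 bases before each RefSeq start site (GRCh38.p14). All 10 genes had a promoter sequence. The composite letters were found in 2 of the 10 (ASNS and CHAC1), against 3.89% of 27305 genes with a promoter and 2.74% of 13445 such genes of the table. The cyclic AMP response element was found in 1 of the 10 (PPP1R15A), against 2.03% of all genes with a promoter and 3% of the 13445 such genes of the table. The endoplasmic reticulum stress element, CCAAT and CCACG spaced by 9 bases, was found in 0 of the 10, against 0.0916% of all genes. The stretches that hold the matches are printed on the strand of the gene, with the matched letters in capitals, because these are the promoters in which the windows of the 10 genes carried either element. The RefSeq start sites differ from the GENCODE 29 gene starts given below, so the ASNS and CHAC1 stretches lie inside the GENCODE span of these genes. The match lies at -68 to -61 relative to the start site in ASNS, at -209 to -202 in CHAC1 (on the opposite strand) and at -58 to -51 in PPP1R15A. They occupy chr7:97872439-97872506 (minus strand), chr15:40953232-40953299 (plus strand) and chr19:48872333-48872400 (plus strand).
ASNS: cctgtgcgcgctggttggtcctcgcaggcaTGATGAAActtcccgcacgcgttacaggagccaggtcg
CHAC1: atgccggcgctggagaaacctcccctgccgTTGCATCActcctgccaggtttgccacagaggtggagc
PPP1R15A: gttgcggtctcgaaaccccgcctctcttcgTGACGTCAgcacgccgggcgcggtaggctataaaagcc
The other 7 genes held neither set of letters in this window, which says nothing of more distant sequence. Among the other 74 genes of the pathway with a promoter, 9 held the composite letters (12.2%): ATF3, CEBPG, FGF21, GOT1, HERPUD1, JDP2, MTHFD1L, PPP1R15B and SLC1A5. The endoplasmic reticulum stress element was held by 6 of those 74 (8.11%): CALR, CRELD2, HSP90B1, HSPA5, PDIA6 and XBP1. The cyclic AMP response element was held by 0 of the 74. A match is a run of letters and no evidence of binding in these cells.

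The values are FPKM, fragments scaled by gene length and by the library's total, and whole reads could be recovered from them: 33662221 to 37508996 per library, a 1.114-fold range of depth. The knockdown control libraries registered more genes than the rest, where 1435 and 1341 genes stood at 0, while every library of the other groups had between 2205 and 2327 such genes. Of 9 markers of A549 or epithelial cells, 8 reached 1 FPKM in both libraries of the knockdown, overexpression and vector control groups, and 7 did in knockdown control. EPCAM stayed below 1 FPKM throughout. Of 10 markers of blood, fibroblast, endothelial, muscle and liver cells, 8 were in the table. Their summed level was 3.0 to 3.1 FPKM in knockdown, 5.77 to 6.03 FPKM in knockdown control, 1.58 to 2.14 FPKM in overexpression and 2.07 to 2.2 FPKM in vector control libraries. In knockdown and knockdown control libraries most of that sum was CD79A and COL1A1. The endothelial markers ran the other way: PECAM1 had 0.019 and 0.042 FPKM in knockdown, 0.042 and 0.104 FPKM in knockdown control, 0.352 and 0.385 FPKM in overexpression, and 0.49 and 0.367 FPKM in vector control libraries, and VWF was also below 0.2 FPKM in the first 4 libraries and above 0.4 FPKM in the other 4. PTPRC, DCN and ALB were at 0 or below 0.1 FPKM everywhere. The part of these differences in the results was not tested. In bulk RNA, fewer cells with a transcript and less of it per cell cannot be told apart.

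**Figure D1:**
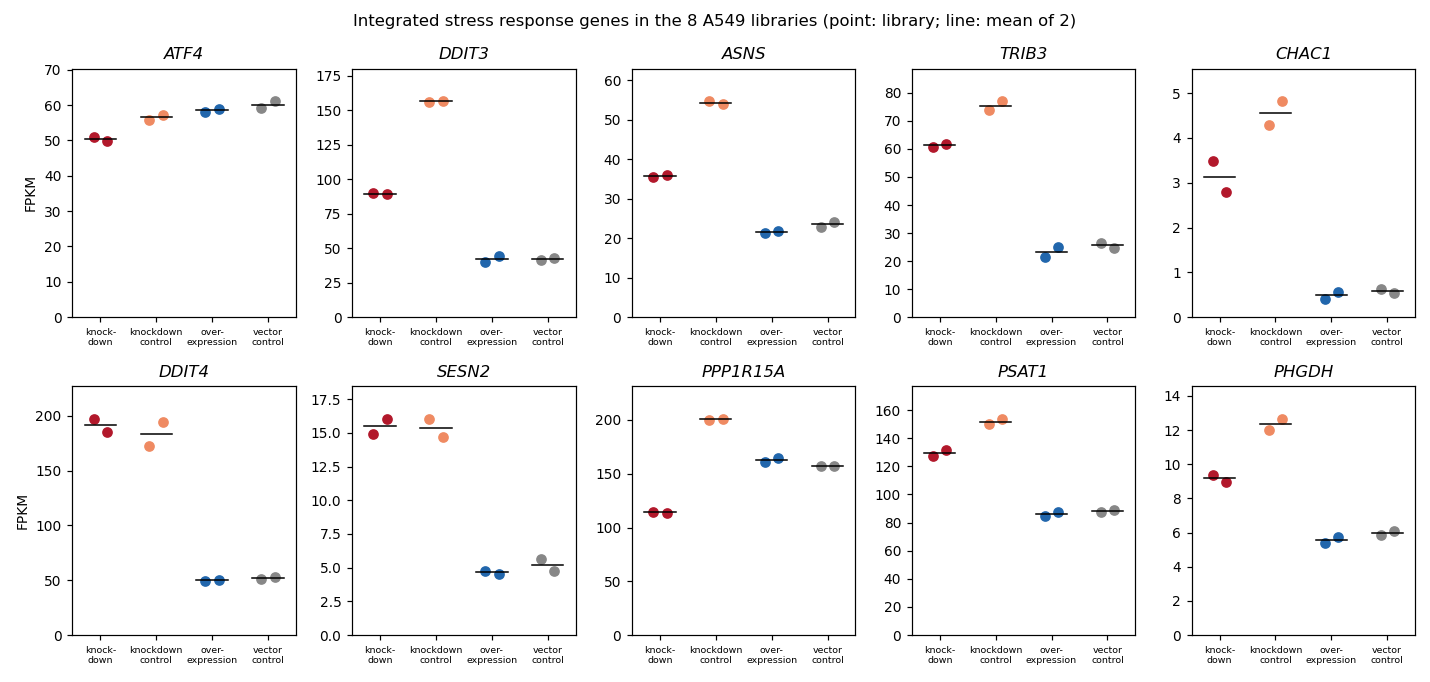
FPKM (vertical axis, starting at 0, a different scale in each panel) of the 10 genes in knockdown, knockdown control, overexpression and vector control libraries; each point is a library and the line is the mean of 2. DDIT3, ASNS, TRIB3, CHAC1, PSAT1 and PHGDH are highest in knockdown control, DDIT4 and SESN2 are about as high in knockdown as in knockdown control, PPP1R15A is lowest in knockdown, and ATF4 spans only 49.7 to 61.1 FPKM.

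The transcription factors behaved unlike each other. ATF4 (chromosome 22, 39519695 to 39522685, plus strand, GRCh38, GENCODE 29, as for all positions of genes) had 50.9 and 49.7 FPKM in knockdown, 55.8 and 57.2 FPKM in knockdown control, 58.1 and 58.9 FPKM in overexpression, and 59.1 and 61.1 FPKM in vector control libraries. Its groups followed each other without overlap, but the whole span from the lowest to the highest library was small beside that of the other genes. The difference was -0.16 ± 0.04 (log2(FPKM + 1), SE) between knockdown and knockdown control, and -0.09 ± 0.04 between knockdown control and vector control.

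DDIT3 (chromosome 12, 57516588 to 57521737, minus strand) encodes CHOP, which in prolonged stress activates genes of cell death and of recovery of translation. It had 90.3 and 88.9 FPKM in knockdown, 156 and 157 FPKM in knockdown control, 40.0 and 44.3 FPKM in overexpression, and 41.7 and 43.1 FPKM in vector control libraries. The mean was 89.6 ± 0.946 FPKM in knockdown, 156 ± 0.317 FPKM in knockdown control, 42.1 ± 2.99 FPKM in overexpression and 42.4 ± 1.02 FPKM in vector control (SD, n = 2 each). Knockdown libraries therefore stood between the knockdown control libraries above and the other 4 libraries below, with no overlap. The knockdown level was 0.573 times that of knockdown control and 2.11 times that of vector control, and the knockdown control level was 3.69 times that of vector control. On the log2(FPKM + 1) scale the differences were -0.80 ± 0.05, 1.06 ± 0.05 and 1.86 ± 0.05 (SE). DDIT3 shares 355 exonic bases with MARS1 (MARS in GENCODE 29) and 58 with MBD6, both genes of the opposite strand. It also shares 105 with AC022506.1, a protein-coding gene of the same strand. The sources used here do not say whether counting used strand. The DDIT3 level may therefore hold reads from any of these genes.

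In the genes of amino acid synthesis, as in DDIT3, knockdown control libraries were highest and knockdown libraries came next. ASNS (chromosome 7, 97852118 to 97872542, minus strand), which carries the composite letters printed above, encodes asparagine synthetase. It had 35.6 and 36.1 FPKM in knockdown, 54.8 and 53.9 FPKM in knockdown control, 21.3 and 21.9 FPKM in overexpression, and 23.0 and 24.1 FPKM in vector control libraries. No group overlapped another, and the knockdown level was 0.659 times that of knockdown control and 1.52 times that of vector control. AC079781.5, a processed transcript on the same strand, shares 1985 exonic bases with ASNS, so the ASNS level may hold reads from it. PHGDH (chromosome 1, 119648411 to 119744226, plus strand) encodes the enzyme that opens serine synthesis from a glycolytic intermediate. Its values were 9.36 and 8.98 FPKM in knockdown, 12.01 and 12.66 FPKM in knockdown control, 5.42 and 5.72 FPKM in overexpression, and 5.88 and 6.11 FPKM in vector control libraries. The ratio was 0.744 for knockdown over knockdown control and 1.53 for knockdown over vector control.

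PSAT1 (chromosome 9, 78297143 to 78330093, plus strand) encodes the aminotransferase of the next step of that route. It had 128 and 132 FPKM in knockdown, 150.0 and 154 FPKM in knockdown control, 84.5 and 87.8 FPKM in overexpression, and 87.3 and 89.2 FPKM in vector control libraries. The same order held, with overlap only between the overexpression and vector control libraries. The ratios were nearer to 1 than for ASNS, at 0.854 for knockdown over knockdown control and 1.47 for knockdown over vector control. GENCODE 29 names 4 pseudogenes each after ATF4, ASNS and PSAT1, and the sources used here do not say how reads that match a copy were counted, so small differences of these 3 genes are uncertain.

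TRIB3 (chromosome 20, 362835 to 397559, plus strand) encodes a pseudokinase that binds ATF4 and CHOP and dampens their activity. It had 60.9 and 61.6 FPKM in knockdown, 73.8 and 77.1 FPKM in knockdown control, 21.6 and 25.2 FPKM in overexpression, and 26.6 and 24.8 FPKM in vector control libraries. Knockdown libraries lay closer to knockdown control than to vector control, at 0.811 and 2.38 times their levels. CHAC1 (chromosome 15, 40952962 to 40956519, plus strand) encodes an enzyme that degrades glutathione. It was the lowest of the 10 in FPKM, with 3.49 and 2.78 FPKM in knockdown, 4.28 and 4.82 FPKM in knockdown control, 0.409 and 0.572 FPKM in overexpression, and 0.637 and 0.532 FPKM in vector control libraries. These values rest on 468 and 369 reads in knockdown, 568 and 661 reads in knockdown control, 55 and 80 reads in overexpression, and 80 and 73 reads in vector control libraries. CHAC1 passed the filter of a mean of 1 FPKM only through the knockdown and knockdown control libraries. Its level in knockdown was 0.689 times that of knockdown control and 5.36 times that of vector control, and knockdown control stood 7.79 times above vector control.

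DDIT4 and SESN2, which both encode inhibitors of the growth-promoting kinase complex mTORC1, showed another pattern. DDIT4 (chromosome 10, 72273920 to 72276036, plus strand) had 197 and 186 FPKM in knockdown, 173 and 194 FPKM in knockdown control, 49.2 and 50.5 FPKM in overexpression, and 50.9 and 52.8 FPKM in vector control libraries. SESN2 (chromosome 1, 28259527 to 28282491, plus strand), whose product also senses leucine, had 14.9 and 16.0 FPKM in knockdown, 16.0 and 14.7 FPKM in knockdown control, 4.76 and 4.54 FPKM in overexpression, and 5.65 and 4.79 FPKM in vector control libraries. For both genes the knockdown and knockdown control libraries overlapped, and all 4 lay above the other 4. The knockdown level of DDIT4 was 1.04 times that of knockdown control and 3.69 times that of vector control. For SESN2 these ratios were 1.01 and 2.97. An antisense gene, DDIT4-AS1, shares 847 exonic bases with DDIT4, so the DDIT4 level may hold reads from it.

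PPP1R15A had a pattern of its own. It encodes GADD34, the regulatory subunit that directs protein phosphatase 1 to eIF2 and so ends the response. PPP1R15A (chromosome 19, 48872392 to 48876057, plus strand) had 115 and 114 FPKM in knockdown, 199.9 and 201 FPKM in knockdown control, 161 and 164 FPKM in overexpression, and 158 and 157 FPKM in vector control libraries. The knockdown libraries were the lowest of the 8, below the overexpression and vector control libraries, and the knockdown control libraries were the highest. The knockdown level was 0.569 times that of knockdown control and 0.726 times that of vector control, while knockdown control was 1.27 times vector control.

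FPKM levels of different genes are comparable only as far as the authors' gene lengths are. The length implied by reads and FPKM was 3.83 times that of the GENCODE transcript used here for ATF4, 2.84 times for PHGDH and 2.02 times for CHAC1, against a median of 1.06 over all genes and a ratio above 2 in 8.16% of genes. The FPKM of these 3 genes would be higher with the shorter lengths. For the same reads, ratios of FPKM between libraries are not touched by the length used, while differences in log2(FPKM + 1) of a low gene such as CHAC1 are. The implied lengths of ATF4 (7733 bases) and CHAC1 (3731 bases) also exceed the whole gene positions given above for them. The sources used here do not say what was counted under these symbols. The levels and ratios of ATF4 and CHAC1 may therefore hold reads from outside the annotated genes.

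**Figure D2:**
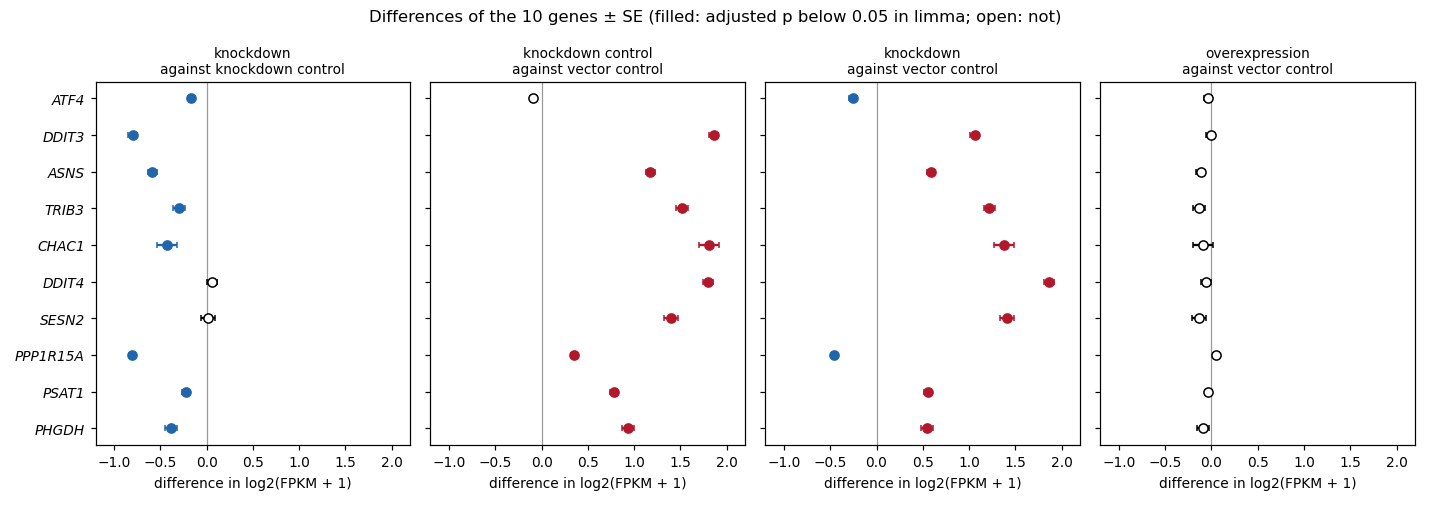
Differences of the 10 genes in log2(FPKM + 1) with their SE (horizontal axis) in 4 comparisons; red marks higher and blue lower at an adjusted p below 0.05 in limma, open points did not pass. 8 genes lie below 0 between knockdown and knockdown control, 9 lie above 0 between knockdown control and vector control, and all 10 stay within 0.14 of 0 between overexpression and vector control.

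Knockdown was compared with its negative control, which itself differed widely from vector control (below). There was no further knockdown or negative control group, and AFAP1-AS1 was not analysed. Loss of AFAP1-AS1 therefore cannot be told apart from any other difference between the treatments of these groups. Of the 10 genes, 8 were called lower by limma on log2(FPKM + 1) at a Benjamini-Hochberg adjusted p below 0.05 over the 10648 genes tested, and 0 were called higher (0 also at an unadjusted p below 0.05 and by voom). The share over all genes tested was 10.9% lower and 11.3% higher, and nothing is read from the comparison of these shares, since the genes were chosen with these values known. The lower differences ran from -0.81 ± 0.03 for PPP1R15A through -0.80 ± 0.05 for DDIT3, -0.59 ± 0.05 for ASNS, -0.43 ± 0.11 for CHAC1, -0.39 ± 0.06 for PHGDH, -0.30 ± 0.06 for TRIB3 and -0.23 ± 0.04 for PSAT1 to -0.16 ± 0.04 for ATF4 (log2, SE). DDIT4 differed by 0.06 ± 0.05 and SESN2 by 0.01 ± 0.08. The median of the 10 was -0.344, beside 0.016 over all genes tested. After a correction of each library for gene length and GC content, 828 of the 10648 genes tested were called lower and 933 higher. ATF4 (-0.07), TRIB3 (-0.19) and CHAC1 (-0.29) were then no longer called, and DDIT4 (0.18) was called higher. Of the 10 genes, 5 remained called lower. Without knockdown control replicate 2 the number called lower was also 5.

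The knockdown control libraries and the vector control libraries carry no labelled change of AFAP1-AS1, and they differed widely. Here 9 of the 10 genes were called higher and 0 lower (0 at an unadjusted p below 0.05, and 1 by voom). Over all genes tested, 36.8% were called higher and 31.8% lower. The differences were 1.86 ± 0.05 for DDIT3, 1.81 ± 0.11 for CHAC1, 1.80 ± 0.05 for DDIT4, 1.52 ± 0.06 for TRIB3, 1.40 ± 0.08 for SESN2, 1.17 ± 0.05 for ASNS, 0.93 ± 0.06 for PHGDH, 0.78 ± 0.04 for PSAT1 and 0.35 ± 0.03 for PPP1R15A (log2, SE). The median was 1.285 over the 10 genes and 0.037 over all genes tested. With values rescaled to the same total in each library (TPM scaling) the median over all genes shifted to -0.155, and after the correction for length and GC content the PPP1R15A difference was 0.03 and no longer called. ATF4 was called lower in 6 of the 17 alternatives, down to -0.42. For CHAC1 the difference depended on the pseudocount, at 2.77 with a pseudocount of 0.1 and 2.96 with voom on reads.

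Set against vector control, the knockdown libraries had 8 of the 10 genes called higher and 2 called lower, beside 34.1% higher and 28.8% lower over all genes tested. The genes called lower were ATF4 (-0.25 ± 0.04) and PPP1R15A (-0.46 ± 0.03). Those called higher ran from 0.54 ± 0.06 for PHGDH and 0.55 ± 0.04 for PSAT1 to 1.41 ± 0.08 for SESN2 and 1.86 ± 0.05 for DDIT4 (log2, SE). This comparison shares its knockdown libraries with the first and its vector control libraries with the second, so the 3 sets of values are not independent of each other. In DDIT3, ASNS, TRIB3, CHAC1, PSAT1 and PHGDH the order was knockdown control, knockdown, then overexpression and vector control together. The share of all genes tested with this order was not computed. Nothing is read from the number of these genes, since they were chosen with these levels known.

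Overexpression of AFAP1-AS1 was set against the vector control. None of the 10 genes was called, in either direction, by limma or by voom, and 1 was lower at an unadjusted p below 0.05 (ASNS). Over all genes tested, 0.0657% were called higher (7 genes, or 12 without vector control replicate 2) and 0% lower; 450 were higher and 288 lower at an unadjusted p below 0.05, and voom called 22 higher and 5 lower. The differences of the 10 genes lay between -0.14 ± 0.08 for SESN2 and 0.05 ± 0.03 for PPP1R15A (log2, SE), and 9 of them were below 0. Of the 10648 genes tested, 5444 lay above 0. The libraries overlapped for DDIT3, TRIB3, CHAC1 and PSAT1. Both overexpression libraries were lower than both vector control libraries for ATF4, ASNS, DDIT4, SESN2 and PHGDH, and higher for PPP1R15A. The share of all genes tested whose libraries separate in this way was not computed. With 2 libraries a group such separation is common without any difference, so nothing is read from it.

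The knockdown effect minus the overexpression effect was tested in the same fit. It was called lower for 4 of the 10 genes and higher for 0 (0 at an unadjusted p below 0.05 and by voom), beside 6.19% lower and 4.02% higher over all genes tested. The 4 were PPP1R15A (-0.86 ± 0.05), DDIT3 (-0.79 ± 0.07), ASNS (-0.47 ± 0.06) and PSAT1 (-0.19 ± 0.05, log2, SE). PSAT1 lost its call in each fit that left out a library and in 3 other settings, and kept it in 6 of the 17 alternatives. For the other 3 the call held in all 17.

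Patterns over the 8 libraries were compared by Pearson's r of log2(FPKM + 1), as a description of libraries that fall into 4 groups. DDIT3 ran with PHGDH (r = 0.9957), ASNS (0.9953), PSAT1 (0.9890), CHAC1 (0.9786) and TRIB3 (0.9720), and less closely with DDIT4 and SESN2 (0.9229 each). With PPP1R15A r was 0.2264, and with ATF4 it was -0.4988. Of the tested genes outside the 10, those nearest to DDIT3 were IER2 (0.9985), an immediate early gene, HERPUD1 (0.9979), a factor of degradation at the endoplasmic reticulum, ATP6V1G1 (0.9977), RPL37 (0.9974) and the glutamine transporter gene SLC1A5 (0.9972). Those nearest to ASNS were IER2 (0.9977), SMTN (0.9960), SLC1A5 (0.9953), RNF167 (0.9952) and DDB2 (0.9945). IER2 averaged 50.0 FPKM in knockdown, 81.3 FPKM in knockdown control, 25.2 FPKM in overexpression and 26.6 FPKM in vector control.

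The rest of the pathway was read from 89 other genes in 7 lists by role, of which 81 passed the filter. The lists were chosen with earlier results of these data known. Most genes named from them below have the smallest p between knockdown and knockdown control. Their p-values therefore describe these libraries and are no independent tests. SLC7A3, GLUL, FGF21, ADM2, KLHL24, TRIB2, SESN3 and DDIT4L averaged below 1 FPKM and were not tested. Between knockdown and knockdown control, 10 of the 81 rose and 25 fell, with a median of -0.091 beside 0.016 over all genes tested, of which 11.3% rose and 10.9% fell. The number that rose was 5 without knockdown replicate 2 or without knockdown control replicate 1, and 6 without knockdown control replicate 2. Between knockdown control and vector control, 40 rose and 20 fell, with a median of 0.123 beside 0.037 over all genes tested, of which 36.8% rose and 31.8% fell. These shares stand beside the counts of every list that follows, except where another setting is named. With TPM scaling, 30 of 83 pathway genes rose and 36 fell between knockdown control and vector control, with a median of -0.09. Over all 11691 genes tested with that scaling, 2543 rose and 5276 fell, with a median of -0.155.

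**Figure D3:**
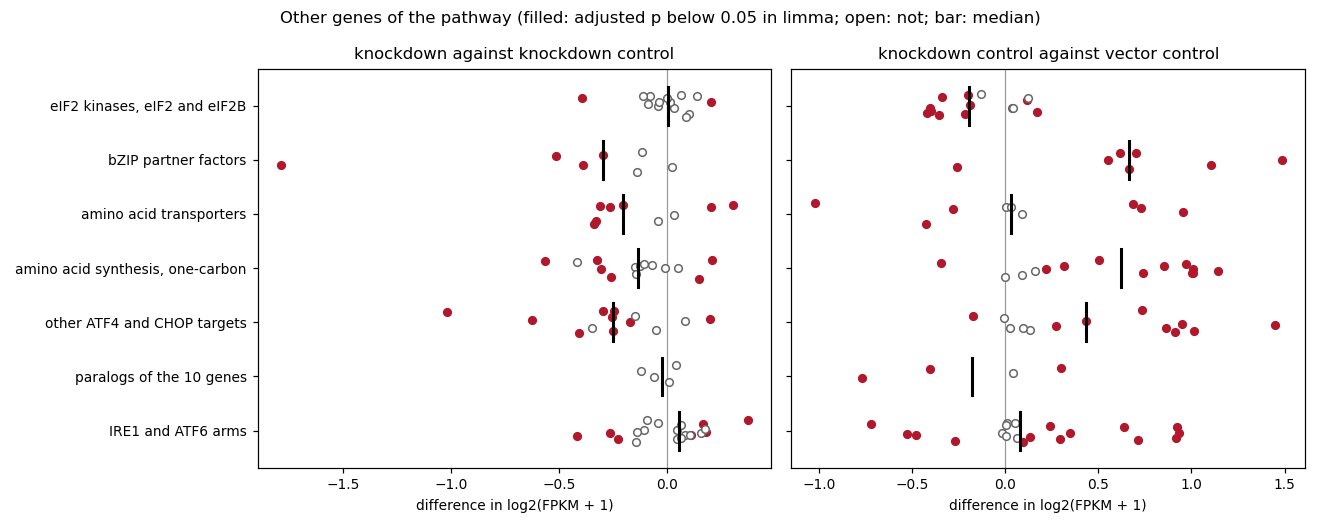
Differences in log2(FPKM + 1) (horizontal axis) of the 81 tested pathway genes by list, between knockdown and knockdown control and between knockdown control and vector control; filled points passed an adjusted p below 0.05 in limma, open points did not, and the bar is the list's median. The list of bZIP partners, which also holds NUPR1, has a median of -0.297 on the left and 0.667 on the right, while the eIF2 list has 0.006 and -0.196.

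The list of bZIP partners of ATF4 and CHOP also holds NUPR1, which is not a bZIP factor. In knockdown against knockdown control, 0 of its 7 genes rose (0 also at an unadjusted p below 0.05 and by voom) and 4 fell. In knockdown control against vector control, 6 rose and 1 fell. ATF3, a stress-induced repressor and activator, had 24.2 and 24.5 FPKM in knockdown, 87.4 and 85.5 FPKM in knockdown control, 28.7 and 30.3 FPKM in overexpression, and 28.5 and 32.1 FPKM in vector control libraries. Its knockdown libraries were below all others, and it fell by 1.79 ± 0.06 (log2, SE; limma, adjusted p = 1.49e-09) against knockdown control and by 0.30 ± 0.06 against vector control (adjusted p = 0.000625). CEBPB, a C/EBP factor that pairs with ATF4, fell by 0.51 ± 0.05 (adjusted p = 1.39e-05), CEBPG by 0.30 ± 0.05 (adjusted p = 0.0022) and the stress regulator NUPR1 by 0.39 ± 0.09 (adjusted p = 0.00791) in knockdown against knockdown control. Against vector control the knockdown control libraries were higher by 1.49 ± 0.06 for ATF3, 0.67 ± 0.04 for CEBPB, 0.55 ± 0.05 for CEBPG and 1.10 ± 0.09 for NUPR1, all called. The CEBPB difference was 0.19 after the correction for length and GC content and still called (adjusted p = 0.00285), and the CEBPG difference was 0.35 with TPM scaling. The fall of NUPR1 in knockdown was not called without knockdown replicate 2.

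Of 13 tested further targets of ATF4 and CHOP, 1 rose and 8 fell in knockdown against knockdown control, and 8 rose and 1 fell in knockdown control against vector control. PMAIP1 (NOXA) and BBC3 (PUMA) encode BH3-only proteins of cell death. In knockdown against knockdown control PMAIP1 fell by 1.02 ± 0.07 (limma, adjusted p = 1.65e-06) and BBC3 by 0.63 ± 0.07 (adjusted p = 9.09e-05), while BCL2L11 (BIM), another BH3-only gene of the list, differed by -0.15 ± 0.08 and was not called (adjusted p = 0.21). PMAIP1 had 18.9 and 17.4 FPKM in knockdown, 36.6 and 39.0 FPKM in knockdown control, 13.7 and 16.0 FPKM in overexpression, and 13.2 and 13.3 FPKM in vector control libraries. As in DDIT3, knockdown control was highest and knockdown next. Both genes are also known targets of p53. CARS1, which encodes cysteinyl-tRNA synthetase, fell by 0.41 ± 0.05 (adjusted p = 0.000281), and the secreted glycoprotein gene STC2 by 0.30 ± 0.04 (adjusted p = 0.000284).

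Amino acid synthesis and folate-linked enzymes had 2 of 14 tested genes that rose and 4 that fell in knockdown against knockdown control, and 10 that rose and 1 that fell in knockdown control against vector control. The 10 include CBS, an enzyme of cysteine synthesis, which averaged 1.09 FPKM in knockdown, 1.83 FPKM in knockdown control, 0.583 FPKM in overexpression and 0.668 FPKM in vector control. CBS passed the filter only through the knockdown and knockdown control libraries, as CHAC1 did, and was not called after the correction for length and GC content (0.44) or without knockdown control replicate 2. PCK2, the mitochondrial enzyme that makes phosphoenolpyruvate, had 12.5 and 13.7 FPKM in knockdown, 20.8 and 18.9 FPKM in knockdown control, 9.38 and 9.43 FPKM in overexpression, and 8.87 and 9.91 FPKM in vector control libraries. The fall against knockdown control was 0.56 ± 0.07 (limma, adjusted p = 0.000219). SHMT2, which takes a carbon unit from serine, fell by 0.30 ± 0.05 (adjusted p = 0.00102) and PYCR1 of proline synthesis by 0.32 ± 0.06 (adjusted p = 0.00264). The PYCR1 fall was 0.20 after the correction for length and GC content. The folate enzyme gene MTHFD1 rose by 0.21 ± 0.04 (adjusted p = 0.00456).

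The amino acid transporters were mixed, with 2 of 9 tested genes that rose and 5 that fell in knockdown against knockdown control, and 3 in each direction in knockdown control against vector control. SLC1A5 fell by 0.33 ± 0.04 (limma, adjusted p = 9.46e-05), SLC3A2, the shared heavy chain of several transporters, by 0.26 ± 0.03 (adjusted p = 0.000215), and SLC1A4 by 0.34 ± 0.07 (adjusted p = 0.00696). SLC38A2 rose by 0.31 ± 0.04 (adjusted p = 0.00041). After the correction for length and GC content SLC3A2 fell by 0.17 and SLC38A2 rose by 0.18. SLC1A4 was not called without knockdown replicate 1 or without knockdown control replicate 2. SLC7A11, the cystine importer gene, had 23.7 and 25.3 FPKM in knockdown, 20.5 and 21.8 FPKM in knockdown control, 45.6 and 42.9 FPKM in overexpression, and 44.0 and 43.9 FPKM in vector control libraries. It rose by 0.20 ± 0.05 in knockdown against knockdown control (adjusted p = 0.0177) and was 1.02 ± 0.05 lower in knockdown control than in vector control (adjusted p = 1.65e-08), the opposite direction to ASNS and CHAC1 in both. After the correction for length and GC content the rise of SLC7A11 in knockdown was 0.05 and not called, and its difference between knockdown control and vector control was -0.44. The rise was also not called without knockdown replicate 2 or without knockdown control replicate 1. With TPM scaling the list's median between knockdown control and vector control was -0.19 in place of 0.032, beside -0.155 over all genes tested with that scaling.

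Upstream of ATF4, 1 of 14 genes of the eIF2 kinases, eIF2 and eIF2B rose and 1 fell in knockdown against knockdown control. The heme-sensing kinase gene EIF2AK1 rose by 0.20 ± 0.04 (limma, adjusted p = 0.00463), and EIF2AK2, the kinase of double-stranded RNA, fell by 0.40 ± 0.06 (adjusted p = 0.000946). EIF2AK2 had 16.8 and 18.5 FPKM in knockdown, 22.9 and 24.2 FPKM in knockdown control, 30.4 and 29.5 FPKM in overexpression, and 28.7 and 26.4 FPKM in vector control libraries. EIF2AK3 (PERK) differed by 0.07 ± 0.08 and EIF2AK4 (GCN2) by 0.10 ± 0.06, neither called. In knockdown control against vector control 2 of the 14 rose and 8 fell, all 4 kinases among those that fell. Of the 17 alternatives, the fall was called in 17 for EIF2AK4, 15 for EIF2AK1, 13 for EIF2AK2 and only 7 for EIF2AK3. After the correction for length and GC content, 3 of the 14 rose and 5 fell, beside 3074 higher and 3196 lower of all 10648 genes tested. EIF2AK2 was then among the 3, with 0.32 in place of -0.22, EIF2AK4 still fell (-0.24), and EIF2AK1 (-0.08) and EIF2AK3 (-0.00) were not called.

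The IRE1 and ATF6 arms, the other branches of the unfolded protein response, had 4 of 20 genes that rose and 3 that fell in knockdown against knockdown control, and 10 that rose and 4 that fell in knockdown control against vector control. The chaperone gene HSP90B1 had 245 and 231 FPKM in knockdown, 191 and 176 FPKM in knockdown control, 302 and 314 FPKM in overexpression, and 294 and 311 FPKM in vector control libraries. It rose by 0.37 ± 0.05 in knockdown against knockdown control (limma, adjusted p = 0.00022), while HERPUD1 fell by 0.42 ± 0.05 (adjusted p = 0.000147). PDIA6 rose by 0.17 ± 0.04 (adjusted p = 0.00583) and XBP1, the factor that IRE1 activates, fell by 0.23 ± 0.06 (adjusted p = 0.0177). XBP1 was not called with TPM scaling (-0.19, adjusted p = 0.0548), after the correction for length and GC content (-0.17, adjusted p = 0.0835), without either knockdown library or without knockdown control replicate 2. HSPA5 (BiP), the main chaperone of the endoplasmic reticulum, differed by 0.04 ± 0.04 (adjusted p = 0.434). HSP90B1 and HSPA5 both carry the endoplasmic reticulum stress element in their windows. With TPM scaling 6 of the 20 rose and 10 fell between knockdown control and vector control, beside 2543 higher and 5276 lower of all 11691 genes tested.

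Of the 7 paralogs of the 10 genes, 4 were tested, and 0 were called in knockdown against knockdown control (0 also at an unadjusted p below 0.05 and by voom). The differences were -0.12 ± 0.06 for TRIB1, 0.01 ± 0.09 for CHAC2, -0.06 ± 0.09 for SESN1 and 0.04 ± 0.05 for PPP1R15B (log2, SE). TRIB1 had 10.9 and 12.1 FPKM in knockdown, 12.9 and 12.2 FPKM in knockdown control, 19.7 and 19.9 FPKM in overexpression, and 22.7 and 21.6 FPKM in vector control libraries. Against vector control, knockdown control was lower for TRIB1 (-0.77 ± 0.06, limma, adjusted p = 4.88e-07) and PPP1R15B (-0.40 ± 0.05, adjusted p = 3.52e-05), genes whose paralogs TRIB3 and PPP1R15A were higher. The PPP1R15B difference was -0.14 after the correction for length and GC content, still called (adjusted p = 0.044). CHAC2 was higher by 0.30 ± 0.09 (adjusted p = 0.014), but not with TPM scaling (0.11, adjusted p = 0.349), without knockdown control replicate 2 or without vector control replicate 1.

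In overexpression against vector control, 0 of the 81 pathway genes were called by limma and 0 by voom, and 5 were higher and 5 lower at an unadjusted p below 0.05. The knockdown effect minus the overexpression effect was called higher for 5 (1 to 4 with a library left out) and lower for 17 of the 81, ATF3 (-1.75 ± 0.08, limma, adjusted p = 8.89e-08), PMAIP1 (-1.17 ± 0.10, adjusted p = 2.06e-05) and BBC3 (-0.64 ± 0.10, adjusted p = 0.0021) among the lower ones.

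**Figure D4:**
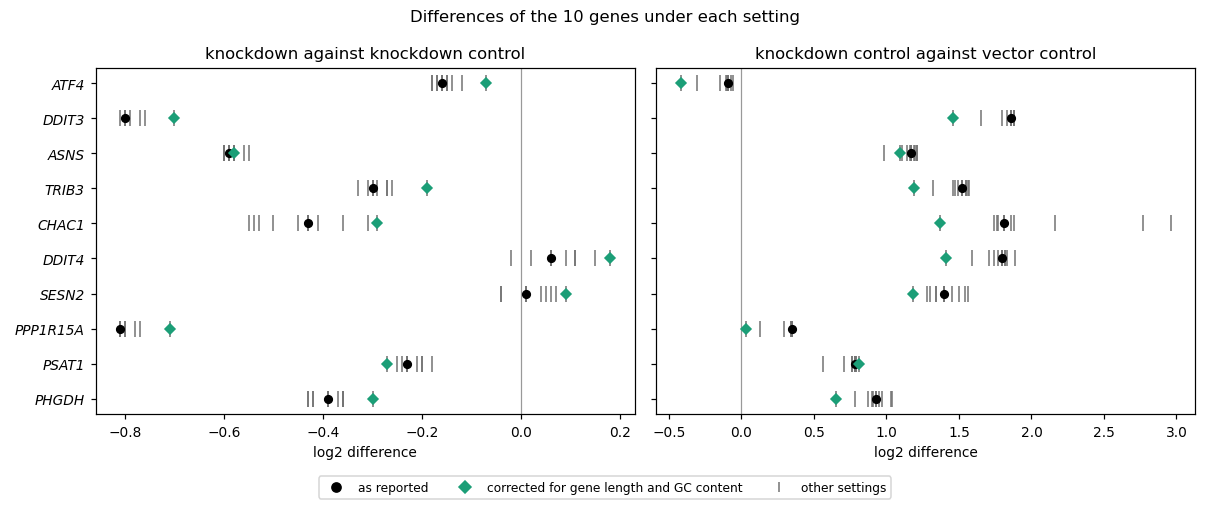
Log2 differences of the 10 genes (horizontal axis) between knockdown and knockdown control and between knockdown control and vector control, as reported (black), corrected for gene length and GC content (green) and under the other settings (grey). DDIT3, ASNS and PPP1R15A stay at or below -0.55 in the left panel in all settings, and the DDIT4 and SESN2 marks lie on both sides of 0.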

How the data were processed

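The authors deposited FPKM values (fragments scaled by gene length and library total) of 17056 gene symbols in 8 columns, 1 for each library. Per the submitters' processing notes, the tools were HISAT2, HTSeq, featureCounts and R 3.2.0 on the build GRCh38, with no role named; the sources used here do not state gene lengths, annotation, filters or strand use. Every gene's values came out as whole numbers of reads within 0.02 reads, which gave 33662221 to 37508996 reads per library; the main fit used FPKM, and the reads served for depth, the read numbers printed, implied lengths, the replicate check and the voom alternative.

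Differences in log2(FPKM + 1) were fitted with limma 3.58.1 (R 4.3.3, eBayes with trend, two-sided tests). The 10648 genes whose mean reached 1 FPKM entered, with all 8 libraries in 1 fit and 4 residual degrees of freedom. The threshold for a call was an adjusted p of 0.05 (Benjamini-Hochberg). This scale understates changes of low genes, and FPKM shifts when a few genes change a library's total. An exact permutation test cannot pass 0.05 with 2 libraries a group. As the labels do not name separate cultures, the spread behind the p-values may be technical; replicates differed by more than counting noise (chi-square per degree of freedom 5.05 to 5.78) and were kept apart.

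The 10 genes and the lists were chosen with earlier results of these data known. Besides the 10, the text names up to 4 genes of each list with the smallest p between knockdown and knockdown control, all tested paralogs, and the 5 genes most correlated with DDIT3 and with ASNS; EIF2AK3, EIF2AK4, SLC7A11, HSPA5, BCL2L11 and CBS lie outside that rule and were added after their values were seen. GENCODE 29 gave positions, lengths and GC content, and RefSeq the promoters (GRCh38.p14). The 17 alternatives covered the pseudocount, filter, scaling, voom, length and GC content, a replicate block and each library left out. The steps were tested on simulated data drawn from the vector control levels, with changes in knockdown only. That simulation does not cover groups that differ as widely as knockdown control and vector control. AFAP1-AS1 is not analysed here.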

Additional observations from a re-analysis of the deposited data

How the results depend on the processing

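The calls of DDIT3, ASNS, PPP1R15A, PSAT1 and PHGDH between knockdown and knockdown control held in all 17 alternatives, those of TRIB3 in 14, ATF4 in 13 and CHAC1 in 10 of 16. All alternatives draw on the same 8 libraries. A call that held shows steadiness under processing only, and is no support for genes chosen with these values known. Without a replicate, genes called between knockdown and knockdown control ranged from 1176 (without knockdown replicate 2) to 2315 (2369 as reported), for the difference of effects from 609 (without knockdown replicate 2) to 823 (1087 as reported), and for overexpression from 6 to 12 (7 as reported). The 10 genes called lower ranged from 5 (without knockdown control replicate 2) to 8 between knockdown and knockdown control and stood at 3 for the difference of effects. Pathway genes called higher ranged from 5 to 9 between knockdown and knockdown control and from 1 to 4 for the difference of effects. Among the 10 genes signs turned for values that were not called: DDIT3 between overexpression and vector control (-0.08 to 0.06 without a replicate; above 0 without overexpression replicate 1, and 0.01 without vector control replicate 2), and, between knockdown and knockdown control, DDIT4 (-0.02 to 0.15; below 0 without knockdown control replicate 1) and SESN2 (-0.04 to 0.07; below 0 without knockdown replicate 2 and without knockdown control replicate 2). Of the pathway genes called, 20 of 35 between knockdown and knockdown control and 34 of 60 between knockdown control and vector control kept their call in every alternative run. In the second comparison 6 called genes were called in the opposite direction: ATF6 (0.15), EIF2AK2 (0.32), ERO1A (0.20) and GDF15 (-0.15) after the length and GC correction, and HSPA5 (-0.09) and PDIA4 (-0.12) with TPM scaling. With voom, 1701 genes were called for the difference of effects and 27 for overexpression, and 8 pathway genes were higher for the difference of effects. Without a filter 0 genes were called for overexpression, and 11 with a minimum mean of 5 FPKM. Between knockdown control and vector control, 1 of the 10 genes (ATF4) was called lower with no filter, median-of-ratios scaling, TPM scaling, voom and the length and GC correction. TPM scaling gave 36 pathway genes lower in that comparison (20 as reported) and 34 lower between knockdown and vector control (19 as reported). Over all genes tested it gave 5276 lower (3391 as reported) and 4735 lower (3068 as reported). The length and GC correction left 5 of the 10 genes lower and 1 higher between knockdown and knockdown control, and 3 pathway genes higher for the difference of effects (5 as reported). Of the genes called, 50.8% were higher between knockdown and knockdown control, 62.1% with median-of-ratios and 63.9% with TPM scaling. It was 53.6% between knockdown control and vector control and 32.5% with TPM scaling, and 54.2% between knockdown and vector control and 31.8% with TPM scaling. The cause of these shifts was not tested. Same-numbered libraries did not deviate together (r from -0.061 to 0.062), so no pairing by number was seen in these values. This cannot tell whether same-numbered libraries share an origin, which the labels do not state. A replicate block gave 2315 genes called between knockdown and knockdown control. The replicate block with the length and GC correction gave 705 genes for the difference of effects, 5 of the 10 genes lower and 1 higher between knockdown and knockdown control, and 1 of the 10 and 13 pathway genes lower between knockdown control and vector control. Depth limits CHAC1 most, with 55 to 80 reads in overexpression and vector control libraries.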
